A study of Drosophila melanogaster with 30 samples.

Results

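The G1 and S phase cyclin genes examined here are 6 genes of the machinery that carries fly cells from G1 into S phase: CycE, CycD, Cdk2, Cdk4, dap and fzr. A gene was included when a probe set carried its symbol alone in the array annotation, and its brightest such probe set over all 30 arrays was read. This gave 1 probe set each for 5 of the 6 genes, CycE, CycD, Cdk2, Cdk4 and fzr, among 10844 genes read in that way. The CDK inhibitor gene dap, whose protein holds Cyclin E and Cdk2 inactive, was not analysed here. Of the 5 genes, 4 passed the filter on dim probe sets and entered the tests, and fzr, the dimmest, did not.

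Cyclins are the activating subunits of the cyclin-dependent kinases (CDKs), which phosphorylate proteins of the cell cycle. In flies Cyclin D with Cdk4 promotes growth and acts on the retinoblastoma proteins RBF1 and RBF2, and Cyclin E with Cdk2 starts DNA replication. RBF proteins bind E2F transcription factors, of which E2F1 activates and E2F2 represses, and CycE is itself a textbook E2F target. E2F2 and the RBFs also sit with Myb and the MuvB proteins (Mip40, Mip120, Mip130 and Lin-52) in the dREAM complex, to which L(3)MBT associates. The product of fzr, known as Cdh1 in other animals, activates the anaphase-promoting complex (APC/C) in G1 and so lets mitotic cyclins be destroyed.

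Total RNA was measured in Kc cells, an embryo-derived Drosophila line of hemocyte character with a tetraploid female karyotype, on day 4 of RNA interference (RNAi). The 9 knockdown groups were Mip40, Mip120, Mip130, Lin-52, Myb, E2F2, RBFs (a joint depletion of RBF1 and RBF2), L(3)MBT and E2F1, and the control group received a nonspecific RNA made from the pBSK+ plasmid, named SK+. Each of the 10 groups had 3 arrays, all cells came from the same line, and the labels do not tell whether the 3 were separate cultures. The p-values therefore cover the variation among these arrays, which may be technical. Each comparison with control addresses how transcripts respond to depletion of 1 target, or of RBF1 and RBF2 together. E2F1 is not among the proteins of the complex named above. The 9 comparisons share the 3 control arrays.

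Signals are on a log2 scale, and a change is the knockdown mean minus the control mean. Array medians ran from 6.45 to 6.58. The target transcript was at 19.3% to 78.1% of control for the 8 targets that were tested; Rbf, too dim to test, was at 96.9% in the RBFs knockdown, and no probe set carried the symbol Myb. Of 9 hemocyte markers with a probe set, 7 lay above the array median on every array, among them Hml and Pxn, while NimC1 did so on 0 arrays and eater on 3. So did 2 of 2 fat body, 2 of 5 lamellocyte and crystal cell, 1 of 2 muscle, 1 of 3 neuron and 1 of 3 germ line markers. A signal above the median therefore does not by itself tell these cell types apart. The 3 L(3)MBT arrays stood apart, with a standard deviation over probe sets of 1.84 to 1.89 against 1.71 to 1.79 on the other arrays. Hybridization spikes averaged 8.65 to 8.82 on the E2F1 arrays against 9.34 to 9.64 on the control arrays. They were also below all control arrays after Mip40 (9.06 to 9.27), Lin-52 (9.14 to 9.26) and L(3)MBT knockdown (9.21 to 9.32). The RBFs arrays, at 9.176 to 9.337, lay just below the lowest control array at 9.340. The 3′ minus 5′ signal of actin was 0.80 to 1.01 on the L(3)MBT arrays against 0.39 to 0.67 on the control arrays. This signal was also above all control arrays on the Lin-52 arrays (0.69 to 0.85). It reached 0.87 on the Mip40, 0.82 on the Myb, 0.80 on the E2F2, 0.75 on the RBFs, 0.73 on the Mip130 and 0.69 on the E2F1 arrays. For GAPDH it was 1.11 to 1.41 on the L(3)MBT arrays against 1.27 to 1.40 in control, and for eIF-4a 0.90 to 0.97 against 0.93 to 1.04. The part of these differences in the results was not tested. The 23 array controls that match no fly transcript averaged 3.15 to 6.22, so signals in that range can be background. The target means after Mip130 (5.78) and Lin-52 knockdown (5.99) lie in it, so the sizes of these 2 depletions are uncertain.

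Over the 9 comparisons with control, 13 of 36 pairs of gene and knockdown passed the test, which was limma's moderated test with Benjamini-Hochberg adjustment over 7794 probe sets and a threshold of 0.05. Over the same comparisons 5.79% to 73.4% of all probe sets passed. CycE passed in the largest number of knockdowns, 5 of 9, followed by Cdk4 with 4, Cdk2 with 3 and CycD with 1. Calls after L(3)MBT and E2F1 knockdown, where most probe sets passed, enter these counts. The E2F1 knockdown changed 3 of the 4 tested genes (CycE, Cdk2 and Cdk4), in a comparison in which 54.2% of all probe sets passed. The L(3)MBT knockdown also changed 3 of 4 (CycE, CycD and Cdk4), where 73.4% of all probe sets passed, a share close to that of the genes. The Myb knockdown changed 2 of 4 (CycE and Cdk2) against 5.79% of all probe sets. A single gene passed after RBFs knockdown (CycE, 23.3% of all probe sets), E2F2 knockdown (Cdk2, 25.5%), Lin-52 knockdown (CycE, 19.4%), Mip120 knockdown (Cdk4, 19.2%) and Mip130 knockdown (Cdk4, 11% of all probe sets). After Mip40 knockdown 0 of 4 passed in limma against 15.9% of all probe sets, and 0 had an unadjusted p under 0.05.

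**Figure D1:**
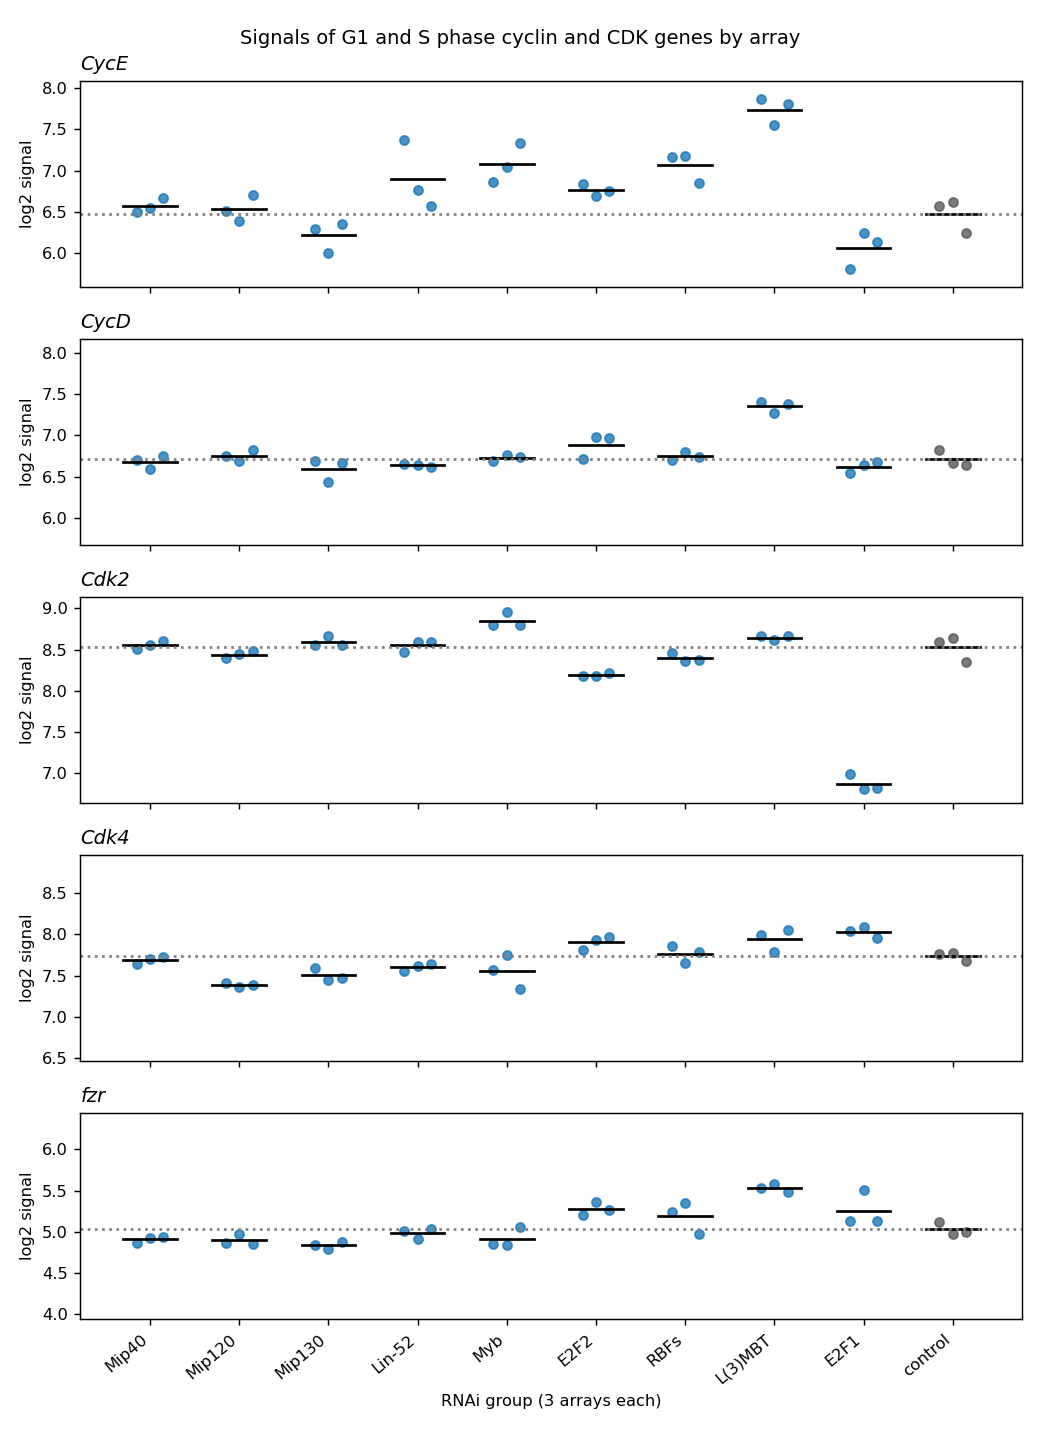
Log2 signal (vertical axes, each spanning the same range) of CycE, CycD, Cdk2, Cdk4 and fzr on every array of the 9 knockdowns and the control (horizontal axis). Points are arrays, bars are group means and the dotted line is the control mean. The 3 E2F1 arrays lie between 6.82 and 7.0 for Cdk2, below all others, and the 3 L(3)MBT arrays are the highest for CycE and CycD.

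CycE encodes Cyclin E. On the L(3)MBT arrays it had 7.86, 7.55 and 7.81, against 6.57, 6.62 and 6.25 on the control arrays. Every L(3)MBT array lay above every other array of the series. CycE rose by 1.26 there (SE 0.149, adjusted p = 1.52e-08), to 239.8% of control. In bulk RNA, more cells in a phase and more RNA per cell cannot be told apart. The 1761 tested probe sets of similar brightness (mean within 0.25) had a median change of -0.13 in that comparison, so CycE moved against the median of its level. It was the 83rd largest rise, among 3028 probe sets that rose.

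In the Myb knockdown CycE had 6.86, 7.04 and 7.33, against 6.57, 6.62 and 6.25 in control. The groups did not overlap, and CycE rose by 0.60 (adjusted p = 0.0103), the 22nd largest rise of that comparison. The RBFs arrays had 7.17, 7.18 and 6.85, also above every control array, and CycE rose by 0.59 (adjusted p = 0.00383), to 151% of control. The Myb call ended without control replicate 3 (0.48, adjusted p = 0.0790) or Myb replicate 3 (0.47, adjusted p = 0.0841), over a range of 0.00614 to 0.0841 in all alternatives, while the RBFs call held in each alternative run.

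The Lin-52 arrays had the widest spread for CycE, at 7.37, 6.77 and 6.57, and overlapped the control. The mean rose by 0.43 (adjusted p = 0.0421), a value that rested on replicate 1: without it the difference was 0.19 (adjusted p = 0.365). The call also ended without control replicate 1 (0.47, adjusted p = 0.0616) or 3 (0.31, adjusted p = 0.183), with the 6 arrays alone (adjusted p = 0.183), with centred arrays (adjusted p = 0.0578) and with cyclic loess normalization (adjusted p = 0.0570). In the E2F2 knockdown CycE had 6.84, 6.70 and 6.75, above all control arrays, but did not pass (0.28, 95% interval -0.02 to 0.59, adjusted p = 0.165, range 0.0401 to 0.513). With the 6 arrays of that comparison alone it did pass (adjusted p = 0.0401).

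Among the 9 comparisons with control, a fall of CycE passed the test only after E2F1 knockdown. The E2F1 arrays had 5.81, 6.24 and 6.13, below the control arrays at 6.57, 6.62 and 6.25. The fall was -0.42 (adjusted p = 0.0188), to 74.9% of control, and the E2F1 mean of 6.06 lies inside the background range of those array controls. The call ended without control replicate 1 (-0.37, adjusted p = 0.0661) or 2 (-0.35, adjusted p = 0.0853), without E2F1 replicate 1 (-0.29, adjusted p = 0.132) and with cyclic loess normalization (-0.36, adjusted p = 0.0617), over a range of 0.00603 to 0.132. The Mip40, Mip120 and Mip130 arrays ran from 6.0 to 6.70 and did not pass. Ordered by mean, CycE stood highest after L(3)MBT (7.74), then Myb (7.08), RBFs (7.07), Lin-52 (6.90), E2F2 (6.76), Mip40 (6.57) and Mip120 (6.54) knockdown, then control (6.48), Mip130 (6.22) and E2F1 (6.06). Neighbours in that order overlapped except L(3)MBT with Myb and E2F2 with Mip40.

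CycD encodes Cyclin D, the partner of Cdk4. It had 7.40, 7.27 and 7.38 on the L(3)MBT arrays, against 6.82, 6.67 and 6.64 on the control arrays. No other array of the series reached that level, the next being 6.98 in the E2F2 knockdown. CycD rose by 0.64 (SE 0.0704, adjusted p = 3.83e-09), to 156% of control, while the 1768 probe sets of similar brightness had a median change of -0.13. Against the mean of the other 8 knockdowns, a contrast added after the values were seen, the difference was 0.65 (adjusted p = 4.54e-12), in a comparison where 4 of 4 genes and 80.9% of all probe sets passed. In the other knockdowns the group means of CycD lay between 6.59 and 6.89 against 6.71 in control, every one of the 8 overlapped the control arrays, and none passed in limma (unadjusted p under 0.05 in 1, the E2F2 knockdown, at 6.72, 6.98 and 6.96, adjusted p = 0.0650). The E2F2 difference of 0.18 did pass with centred arrays (0.20, adjusted p = 0.0404), with cyclic loess normalization (0.20, adjusted p = 0.0440), without control replicate 1 (0.23, adjusted p = 0.0316) and without E2F2 replicate 1 (0.26, adjusted p = 0.0115). Below L(3)MBT all neighbours in the order of means overlapped.

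Cdk2 encodes the kinase that Cyclin E activates, and was the brightest of the genes. On the E2F1 arrays it had 7.0, 6.82 and 6.82, against 8.59, 8.64 and 8.35 on the control arrays. The gap between these groups was wide compared with the spread within either (SD 0.10 on the E2F1 arrays and 0.15 on the control arrays). Cdk2 fell by 1.65 on the log2 scale (SE 0.0649, adjusted p = 3.88e-19), to 31.8% of control. It was the 8th largest fall of all 7794 probe sets in that comparison. Over all alternatives the value stayed between -1.74 and -1.60.

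Cdk2 also moved in the E2F2 and Myb knockdowns, with opposite signs. The E2F2 arrays had 8.18, 8.18 and 8.22, all below the control arrays at 8.59, 8.64 and 8.35. The fall was -0.34 (adjusted p = 0.000292), to 79.2% of control. The Myb arrays had 8.80, 8.96 and 8.79, all above the control arrays, and Cdk2 rose by 0.32 (adjusted p = 0.00112), to 125% of control. That call ended with the 6 arrays alone (adjusted p = 0.118, range 0.000363 to 0.118 in all alternatives). Placed side by side, CycE and Cdk2 were both lower after E2F1 knockdown and both higher after Myb knockdown. Of this pair only Cdk2 passed after E2F2 knockdown, and it was lower. Only CycE passed after RBFs, Lin-52 and L(3)MBT knockdown, and it was higher. After RBFs knockdown Cdk2 had 8.46, 8.36 and 8.38 and did not pass (-0.13, 95% interval -0.26 to 0.00245). Without control replicate 3 it passed (-0.22, adjusted p = 0.0123), and so did the Mip120 difference (-0.18, adjusted p = 0.0459).

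After L(3)MBT knockdown Cdk2 had 8.66, 8.61 and 8.66, against 8.59, 8.64 and 8.35 in control. The groups overlapped and the difference did not pass (0.12, adjusted p = 0.104), while probe sets of its brightness had a median change of 0.14. It passed with centred arrays (0.22, adjusted p = 0.00510) and without control replicate 2 (0.17, adjusted p = 0.0295). The remaining groups ran from 8.40 to 8.66, within or overlapping the control range. Ordered by mean, Cdk2 was highest after Myb knockdown (8.85), followed by L(3)MBT (8.65), Mip130 (8.59), Mip40 (8.56), Lin-52 (8.55), control (8.53), Mip120 (8.44), RBFs (8.40), E2F2 (8.19) and E2F1 (6.88). The ranges of Myb, E2F2 and E2F1 each stood clear of their neighbours, and all other neighbours overlapped.

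Cdk4 encodes the kinase that Cyclin D activates, and it had small changes in both directions. It was highest in the E2F1 knockdown, with 8.04, 8.09 and 7.96 against 7.76, 7.78 and 7.68 in control. The groups did not overlap and Cdk4 rose by 0.29 (SE 0.0764, adjusted p = 0.00195), to 122% of control. It was lowest in the Mip120 knockdown, with 7.42, 7.36 and 7.38, again clear of the control arrays. There it fell by 0.35 (adjusted p = 0.00115), to 78.4% of control, and both calls held in all alternatives. Cdk4 and Cdk2 moved in opposite directions after E2F1 knockdown.

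The Mip130 arrays had 7.59, 7.45 and 7.48 for Cdk4 and lay below the control arrays at 7.76, 7.78 and 7.68. The fall of -0.23 passed narrowly (adjusted p = 0.0441, range 0.0212 to 0.165). It no longer passed without control replicate 1 (-0.22, adjusted p = 0.149) or 2 (-0.21, adjusted p = 0.159), without Mip130 replicate 2 (-0.20, adjusted p = 0.165) or 3 (-0.22, adjusted p = 0.132), with centred arrays (adjusted p = 0.0591), with no filter (adjusted p = 0.0599) and with a replicate block (adjusted p = 0.0550). On the L(3)MBT arrays Cdk4 had 8.0, 7.79 and 8.06 and rose by 0.21 (adjusted p = 0.0157), which ended with quantile normalization (0.12, adjusted p = 0.125). The L(3)MBT call also ended without control replicate 3 (0.18, adjusted p = 0.0661) or L(3)MBT replicate 1 (0.18, adjusted p = 0.0611) or 3 (0.15, adjusted p = 0.103).

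The Lin-52 arrays had 7.55, 7.61 and 7.64 for Cdk4, below all control arrays, without passing (adjusted p = 0.240). The Myb arrays were wide apart, at 7.57, 7.75 and 7.34, and the E2F2 arrays had 7.81, 7.93 and 7.97. Neither passed (adjusted p = 0.202 for Myb and 0.110 for E2F2), but the Myb difference of -0.19 did so without Myb replicate 2 (-0.28, adjusted p = 0.0216). In order of means Cdk4 stood at 8.03 after E2F1, 7.95 after L(3)MBT, 7.90 after E2F2 and 7.76 after RBFs knockdown, 7.74 in control, 7.69 after Mip40, 7.60 after Lin-52, 7.55 after Myb, 7.51 after Mip130 and 7.39 after Mip120 knockdown. All neighbours overlapped except Mip130 with Mip120. The means of the 5 knockdowns of MuvB proteins and Myb were all below the control mean, and those of the 4 knockdowns of E2F, RBF and L(3)MBT proteins all above it, but only 2 of the 5 and 2 of the 4 passed.

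**Figure D2:**
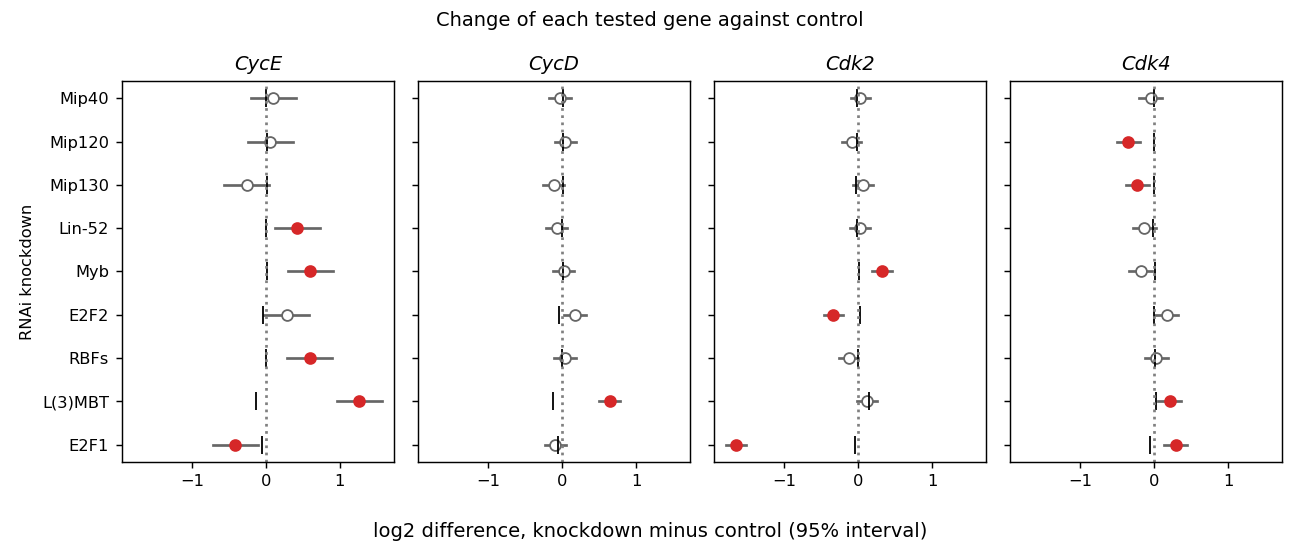
Log2 difference between each knockdown and control (horizontal axes) for CycE, CycD, Cdk2 and Cdk4, by knockdown (rows). Circles are estimates with 95% intervals from limma, filled where the adjusted p was under 0.05, and vertical ticks are the median change of probe sets of similar brightness. The Cdk2 estimate after E2F1 knockdown lies at -1.65 and the CycE estimate after L(3)MBT knockdown at 1.26.

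The gene fzr lay above its array's median on 0 of 30 arrays, averaged 5.08, and stood inside the background range of the array controls, so its values cannot be told from background. The L(3)MBT arrays had 5.53, 5.58 and 5.48, against 5.12, 4.97 and 5.0 on the control arrays. The E2F1 arrays had 5.13, 5.50 and 5.14. The group means ran from 4.84 to 5.53 in the knockdowns against 5.03 in control, and no change is read from them.

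Direct comparisons between knockdowns tested whether these responses differ. Between E2F2 and E2F1 knockdown 3 of 4 genes passed (53% of all probe sets). Cdk2 was higher after E2F2 knockdown by 1.32 (adjusted p = 6.55e-17), CycE by 0.70 (adjusted p = 0.000211) and CycD by 0.27 (adjusted p = 0.00185). Cdk4 did not pass (-0.12, 95% interval -0.28 to 0.03), except with quantile normalization (-0.17, adjusted p = 0.0436) and cyclic loess (-0.19, adjusted p = 0.0322). Both knockdowns had lower Cdk2 than control, and the E2F1 arrays lay below the E2F2 arrays as well.

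Between RBFs and E2F1 knockdown 3 of 4 passed (47.5% of all probe sets): Cdk2 was higher after RBFs knockdown by 1.52 (adjusted p = 3.00e-18), CycE was higher by 1.01 (adjusted p = 1.36e-06) and Cdk4 lower, at -0.26 (adjusted p = 0.00508). Between Myb and E2F1 knockdown 3 of 4 passed as well (55% of all probe sets), with Cdk2 higher by 1.97 (adjusted p = 4.08e-21) and CycE by 1.02 (adjusted p = 8.48e-07) after Myb knockdown. Cdk4 was lower there, at -0.47 (adjusted p = 3.98e-06).

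Between Myb and E2F2 knockdown 2 of 4 passed (32.4% of all probe sets), Cdk2 at 0.66 (adjusted p = 2.27e-09) and Cdk4 at -0.35 (adjusted p = 0.000663). CycE differed by 0.32 (95% interval 0.01 to 0.62) and did not pass (adjusted p = 0.102), except with the 6 arrays alone (adjusted p = 0.0322). CycD did not pass either, except without E2F2 replicate 1 (-0.24, adjusted p = 0.0136). Between RBFs and E2F2 knockdown 1 of 4 passed (24.9% of all probe sets), Cdk2 at 0.21 (adjusted p = 0.0196). That call ended with centred arrays (0.17, adjusted p = 0.0587), without E2F2 replicate 1 (adjusted p = 0.0578) or 2 (adjusted p = 0.0576) and without RBFs replicate 1 (adjusted p = 0.0720). For CycE the RBFs arrays all lay above the E2F2 arrays, yet the difference of 0.31 did not pass (adjusted p = 0.130), except with the 6 arrays alone (adjusted p = 0.00290). CycD passed without E2F2 replicate 1 (-0.22, adjusted p = 0.0296) and in no other fit.

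Against the mean of the other 8 knockdowns, a contrast also added after the values were seen, the E2F1 knockdown had 4 of 4 genes past the threshold (59% of all probe sets). Cdk2 differed by -1.65 (adjusted p = 1.03e-22), CycE by -0.80 (adjusted p = 2.99e-07), CycD by -0.18 (adjusted p = 0.00395) and Cdk4 by 0.36 (adjusted p = 2.89e-06). The CycD call ended without E2F1 replicate 1 (-0.14, adjusted p = 0.0568). The mean of the other 8 includes the L(3)MBT arrays, the highest for CycE and CycD, and this contrast was not run without them. Against control CycD did not pass after E2F1 knockdown (6.62 against 6.71), and its Mip130 mean was lower (6.59). In the same kind of contrast for L(3)MBT, CycE differed by 1.09 (adjusted p = 4.92e-10), Cdk2 by 0.34 (adjusted p = 2.86e-07) and Cdk4 by 0.27 (adjusted p = 0.000106). The Cdk2 difference was 0.13 with quantile normalization (adjusted p = 0.00956) and 0.20 with cyclic loess, and probe sets of its brightness had a median difference of 0.17.

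Other genes of the G1 and S phase network were read as lists, without the genes above. S phase genes known as E2F targets, such as the MCM helicase subunits, PCNA and the licensing factor dup, numbered 15 tested of 19 listed. After E2F1 knockdown 0 rose and 15 fell, where 54.2% of all probe sets passed, with a median of -1.40 against -0.05 for all tested probe sets. Mcm5 had the largest estimated fall, to 6.27 ± 0.21 against 8.17 ± 0.25 in control (SD, n = 3), a change of -1.90. Its E2F1 knockdown mean lies close to the top of the background range (6.22), so the size of this fall is uncertain. Cdk2, at -1.65, lay within the range of this list. CycE, at -0.42, and Cdc6, at -0.67, had E2F1 knockdown means inside the background range (6.06 and 5.89), so the sizes of these 2 falls have no order.

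After Myb knockdown 8 of the 15 S phase genes rose and 0 fell, 53.3% against the 5.79% of all probe sets, with a median of 0.26 against 0.01. The gene dup had the largest rise, 0.41 (8.06 ± 0.16 in the Myb knockdown against 7.66 ± 0.09 in control). CycE and Cdk2 rose beside them. After RBFs knockdown 5 rose and 0 fell, 33.3% against 23.3% of all probe sets, with a median of 0.10 and dup again with the largest rise at 0.37. After E2F2 knockdown 3 rose and 0 fell, 20% against 25.5% of all probe sets, with a median of 0.01 and Mcm6 at 0.34. After L(3)MBT knockdown 11 rose and 0 fell, 73.3% against 73.4% of all probe sets, with dup at 1.26. With quantile normalization the L(3)MBT counts were 7 and 1 and the median was 0.14, against 0.36 as deposited. Of all tested probe sets 2392 rose and 2919 fell with that normalization, against 3028 and 2695 as deposited. The share of the 15 that passed was 6.67% after Mip40 (15.9% of all probe sets), 13.3% after Mip120 (19.2%), 6.67% after Mip130 (11%) and 20% after Lin-52 knockdown (19.4%).

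**Figure D3:**
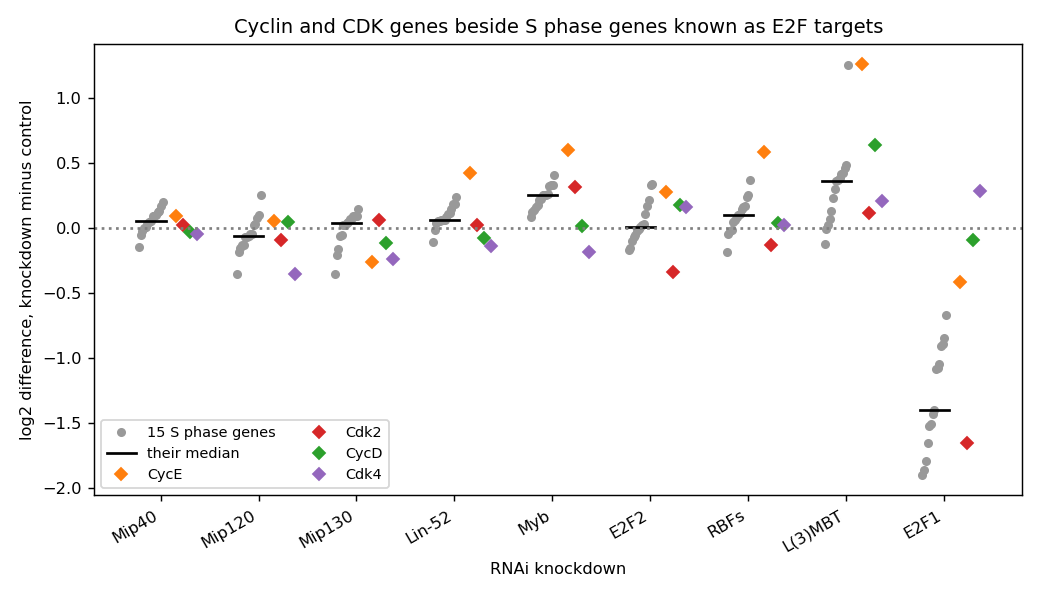
Log2 difference between knockdown and control (vertical axis) for each of 15 S phase genes known as E2F targets (grey points, with their median as a bar) and for CycE, CycD, Cdk2 and Cdk4 (diamonds), by knockdown (horizontal axis). After E2F1 knockdown the grey points and Cdk2 lie far below 0, with a median of -1.40, while CycD stays near 0 and Cdk4 lies above it at 0.29.

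The transcription factors themselves form a list of 5, of which E2f1, E2f2, Dp and Rbf2 were tested. Beside the falls of the targeted transcripts, Rbf2 fell by 0.79 after E2F1 knockdown (6.74 ± 0.07 against 7.54 ± 0.04 in control, adjusted p = 5.17e-13). It rose by 0.30 after Mip120 knockdown and by 0.31 after Mip130 knockdown (adjusted p = 0.000266 and 0.000188). E2f2 passed in its own knockdown and in no other of the 9 comparisons in limma, and E2f1 did not pass after E2F2 or RBFs knockdown (0.18 and 0.24). E2f1 rose by 0.34 after Mip120 knockdown (adjusted p = 0.0265), a call that ended without control replicate 1 (0.32, adjusted p = 0.0914) or 2 (0.25, adjusted p = 0.186) and without Mip120 replicate 1 (0.31, adjusted p = 0.101) or 2 (0.34, adjusted p = 0.0649). After L(3)MBT knockdown it rose by 0.39, which ended with quantile normalization (0.14, adjusted p = 0.285) and cyclic loess (0.21, adjusted p = 0.103). Rbf2 fell by 0.44 after RBFs knockdown, of which it is a target, and by 0.24 after L(3)MBT knockdown. Its smaller rises after Mip40 (0.18) and E2F2 knockdown (0.19) lost their calls when single arrays were left out (adjusted p up to 0.102 and 0.0729). Dp, the partner of E2F proteins, rose by 0.55 after L(3)MBT knockdown, and its rises after Mip120 (0.28), Lin-52 (0.32) and Myb knockdown (0.36) lost their calls in 3 to 5 alternatives (adjusted p up to 0.347).

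Of the other cyclins and CDKs 12 of 17 listed were tested, most of which act in mitosis or in transcription. After E2F1 knockdown 1 rose and 8 fell, 75.0% against 54.2% of all probe sets, with a median of -0.27, the mitotic cyclin gene CycB3 falling most at -0.65. After L(3)MBT knockdown 9 rose and 0 fell, 75.0% against 73.4% of all probe sets, with a median of 0.34 and CycJ at 0.90. With quantile normalization 8 rose and 1 fell, where 2392 of all tested probe sets rose and 2919 fell. CycB, another mitotic cyclin, fell after Mip120 (-0.42), Mip130 (-0.45), Lin-52 (-0.35), Myb (-0.34) and E2F1 knockdown (-0.57). In the other 7 comparisons 8.33% to 25.0% of the 12 passed, where 5.79% to 25.5% of all probe sets did. One of these calls, the rise of CycJ after Myb knockdown (0.35, adjusted p = 0.0457), was lost in 10 of 14 alternatives (adjusted p up to 0.288). Among these were quantile normalization (adjusted p = 0.0705), the 6 arrays alone (adjusted p = 0.113) and a replicate block (adjusted p = 0.0595).

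Among CDK regulators 6 of 10 were tested, and the kinase-binding subunit Cks30A moved most. It fell by 0.75 after Myb knockdown (6.75 ± 0.10 against 7.50 ± 0.16 in control, adjusted p = 3.20e-08). It rose by 0.60 after E2F2 knockdown (8.10 ± 0.04, adjusted p = 1.86e-06), by 0.47 after L(3)MBT and by 0.38 after RBFs knockdown (adjusted p = 0.000538), and fell by 0.44 after E2F1 knockdown (adjusted p = 2.12e-05). In the Myb knockdown CycE and Cdk2 were thus higher while Cks30A was lower. After E2F1 knockdown 0 of the 6 regulators rose and 4 fell, 66.7% against 54.2% of all probe sets, trbl, a gene that restrains mitotic entry, most at -0.52.

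Of 14 APC/C genes, which act with fzr in mitosis and G1, 8 were tested. The activator gene fzy rose by 0.67 after E2F2 knockdown (9.08 ± 0.05 against 8.41 ± 0.10 in control, adjusted p = 2.45e-06) and by 0.55 after L(3)MBT knockdown. It fell by 0.31 after E2F1 knockdown, and its rise of 0.28 after RBFs knockdown lost its call in 3 alternatives (adjusted p up to 0.121). The APC/C scaffold gene shtd rose after Mip120 (0.39), Mip130 (0.33), E2F2 (0.43) and RBFs knockdown (0.33). It also rose after Mip40 (0.26) and fell after E2F1 knockdown (-0.19), with adjusted p up to 0.0905 and 0.161 in the alternatives. After E2F1 knockdown 0 of the 8 rose and 4 fell, 50.0% against 54.2% of all probe sets, the conjugating enzyme gene vih most at -0.49.

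The SCF and other cullin ligases, which destroy Cyclin E and other G1 and S phase proteins, had all 11 listed genes tested. After L(3)MBT knockdown 10 rose and 0 fell, 90.9% against 73.4% of all probe sets, with Cul3 at 0.76. With quantile normalization 8 rose, where 2392 of all tested probe sets rose and 2919 fell. After E2F1 knockdown 3 rose and 4 fell, 63.6% against 54.2% of all probe sets, l(2)dtl by 0.64 on the log2 scale. Skp2, a substrate adaptor, rose by 0.30 after Mip40, 0.33 after Myb and 0.56 after L(3)MBT knockdown and fell by 0.49 after E2F1 knockdown. Its rise of 0.18 after Mip120 knockdown lost its call in 6 alternatives (adjusted p up to 0.107). SkpA, the SCF linker, rose by 0.36 after E2F2, 0.26 after RBFs, 0.54 after L(3)MBT and 0.27 after E2F1 knockdown. Its rises after Mip120 (0.18) and Lin-52 knockdown (0.22) lost their calls in 8 and 2 alternatives (adjusted p up to 0.228 and 0.112).

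Genes with a profile like that of each gene were found by Pearson's r over the 10 group means, which share arrays and the same control, and are given as a description. For Cdk2 they were His2Av, the histone H2A variant gene (r = 0.99), mms4 (r = 0.98) and the replication clamp gene PCNA (r = 0.98). PCNA changed by -1.80 after E2F1 knockdown and 0.34 after Myb knockdown, beside -1.65 and 0.32 for Cdk2. For CycE they were D19B (r = 0.95), the replication gene Mcm10 (r = 0.94) and CG12236 (r = 0.94). All 3 had their highest mean in the L(3)MBT and their lowest in the E2F1 knockdown, as CycE did, over smaller ranges of 0.53 to 1.22 against 1.68. The lowest means of Mcm10 (6.0) and CycE (6.06) lie inside the background range, so the sizes of their ranges are uncertain.

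For CycD the most like were Coop (r = 0.98), the chaperone gene Hsc70-4 (r = 0.98) and hfp (r = 0.98), each highest after L(3)MBT knockdown. For Cdk4 they were mal (r = 0.95), the ribosomal protein gene RpL23 (r = 0.95) and CROT (r = 0.94), each highest after E2F1 knockdown. The ranges of group means were unequal: 2.64 for CROT and 0.17 for mal, against 0.64 for Cdk4. The lowest mean of CROT (5.29, after Mip130 knockdown) lies inside the background range, so the size of its range is uncertain. No change of mal passed the test in any comparison. Among the genes themselves r over the group means was 0.80 between CycE and CycD, 0.53 between CycE and Cdk2, 0.42 between CycD and Cdk4 and -0.59 between Cdk2 and Cdk4.

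**Figure D4:**
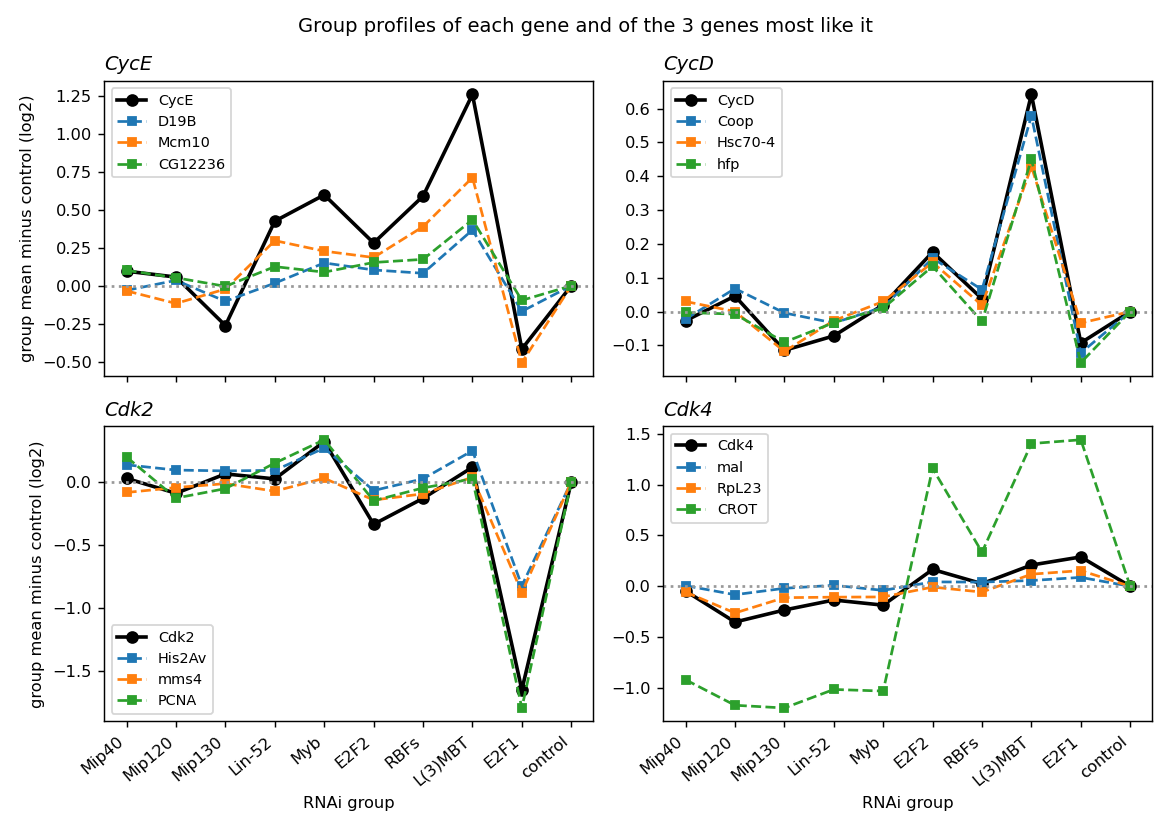
Group mean minus control mean on the log2 scale (vertical axes) across the 9 knockdowns and the control (horizontal axis) for CycE, CycD, Cdk2 and Cdk4 (black circles) and the 3 genes with the highest Pearson's r to each (coloured squares). The Cdk2 profile drops to -1.65 in the E2F1 knockdown together with PCNA at -1.80, and the CycD profile peaks at 0.64 in the L(3)MBT knockdown.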

How the data were processed

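The series holds 30 Affymetrix arrays, 1 column each, of biotin-labelled cRNA from 10 micrograms of total RNA, per the labels. The deposited values, from 1.95 to 13.60, were taken as log2 signals on the basis of that range, since no log base is stated. The submitters' processing notes name GCOS 1.2.0, and summarization and normalization are not given in the sources used here.

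Members and lists were chosen with earlier results of these data known. Values were used as deposited. After 44 control probe sets were left out, 7794 of 13966 probe sets above their array's median on at least 3 arrays were tested. Group means of all 30 arrays were fitted in limma 3.58.1 (R 4.3.3, eBayes with intensity trend, 20 residual degrees of freedom), with two-sided p-values adjusted by Benjamini-Hochberg within each of 16 contrasts. The 2 contrasts against the mean of the other knockdowns were added after seeing the data. Replicate numbers were checked as pairs. Deviations of same-numbered arrays correlated by over 0.1 in all 3 pairs only for Myb against control (0.21 to 0.58). Even there not every array correlated best with its own number, and the labels state no pairing. A replicate block in that comparison changed no call of CycE, CycD, Cdk2 and Cdk4 and ended that of CycJ. The fit was tested on simulated data. Genes were named as members, by the largest change of each list, by E2F and RBF identity, or by likeness of profile. Cdc6, and further calls of named list genes, were added after their values were seen. Alternatives were quantile, cyclic loess and median-centred values, other filters, no intensity trend, the 6 arrays alone, a replicate block, leaving out all L(3)MBT arrays, and leaving out each array. Tables and figures used Python 3.11.15, pandas 2.3.3, numpy 2.4.6 and matplotlib 3.10.9.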

Additional observations from a re-analysis of the deposited data

How the results depend on the processing

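Of 33 pairs of gene and comparison that passed, 25 kept their call in every alternative run, 8 lost it in at least 1 and 0 changed sign. Their values stand with each result. The 7 pairs whose groups stood apart without passing included 3 that passed in an alternative, with the 6 arrays of the comparison alone. The number of called genes among the 4 was 0 for Mip130 with centred arrays, with no filter and with a replicate block (Cdk4 adjusted p = 0.0550), and 0 to 1 without single arrays. For Lin-52 it was 0 with centred arrays, the 6 arrays alone and cyclic loess, and 0 to 1 without single arrays. For Myb it was 1 with the 6 arrays alone and 1 to 3 without single arrays (3 without Myb replicate 2). For E2F2 it was 2 with centred arrays, the 6 arrays alone and cyclic loess, and 1 to 2 without single arrays (2 without control replicate 1 or E2F2 replicate 1), as for Mip120 and RBFs (2 without control replicate 3). For RBFs against E2F2 it was 0 with centred arrays, 2 with the 6 arrays alone and 0 to 1 without single arrays. Probe sets called with the 6 arrays alone numbered 639 for Lin-52 and 200 for Myb. For L(3)MBT they numbered 9542 with no filter and 3745 with the filter at the 70th percentile against control, and 10688 and 4081 against the other knockdowns, since these filters test more or fewer probe sets. Without single arrays they ran from 566 to 1169 for Mip130 (566 without control replicate 1) and from 1185 to 1954 for RBFs against E2F2 (1234 without E2F2 replicate 3, 1185 without RBFs replicate 3). The replicate block changed no other call of CycE, CycD, Cdk2 and Cdk4 and ended that of CycJ after Myb knockdown (adjusted p = 0.0595), and counts of called probe sets stayed within 0.969 to 1.0 times those without it. Centring moved the median of all probe sets by 0.10 after L(3)MBT knockdown, where the share of calls that were higher was 52.9% as deposited and 65.3% with it. That share was 64.2% for E2F2, 77.2% with centring and 50.5% with quantile normalization, and 42.2% for E2F1 and 53.1% with cyclic loess. The cause of these changes was not tested. The number of arrays limits the precision, and the signal of CycE in the E2F1 knockdown and of fzr lies within the range of the array controls without a fly target.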
